A study of Caenorhabditis elegans with 4 samples.

Results

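NHR-12::GFP binding regions on chromosome IV of Caenorhabditis elegans are described here for the part of the chromosome that lies outside its piRNA-rich stretches. The members are all deposited regions on IV whose midpoint fell outside 2 windows, from 4.5 to 7.0 Mb and from 13.5 to 17.2 Mb, on genome build WormBase WS220. The rule used position alone and no measured value, but it was chosen with earlier results of these data known. It gave 17 of the 197 regions of the authors' combined list, 2757 of the 25045 regions of ChIP replicate 1 and 3204 of the 30000 regions of ChIP replicate 2.

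The series holds 4 libraries from L2 larvae, with 2 anti-GFP ChIP libraries and 2 input libraries, and region lists of the 2 ChIP libraries and of both combined were analysed. All animals were hermaphrodites of strain OP318, grown at 20 °C, in the unc-119(ed3) background with the transgene wgIs318, which encodes nhr-12::TY1 EGFP FLAG and restores unc-119(+). The transgene was made by recombineering and introduced by biolistic transformation into unc-119(ed3) animals, and the strain was outcrossed 3 times. Inputs carried the same transgene, and region lists of inputs or of a strain without the tag were not analysed here. Nothing in the labels ties the replicates to separate cultures, and the spread between them may be technical. The lists hold no read counts, and the depth of each library is unknown.

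Nuclear hormone receptors are transcription factors with a DNA-binding domain of zinc fingers and, in most members, a domain that can bind small lipophilic ligands. The family is greatly expanded in C. elegans, and many of its members have no known ligand. Chromosome IV of this species carries most of the genes for piRNAs, the small RNAs that guide the Argonaute protein PRG-1 in the germline, and these genes are packed into 2 broad clusters. The stretches outside them hold ordinary protein-coding genes on an arm, in the chromosome centre and at the far end. In C. elegans the arms of autosomes recombine more and hold more repeats than the centres, which are richer in conserved genes.

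The members could lie in 3 stretches, which together made up 11.3 Mb, or 64.6% of IV and 11.3% of the nuclear chromosomes. The left stretch ran from the chromosome's start to 4.5 Mb, the middle stretch of 6.5 Mb lay between the windows, and the right end after the second window measured 0.293 Mb. The end of IV was set at 17492650, where the last listed region ends. The left stretch held 9 combined regions, the middle stretch 7 and the right end 1. Per Mb these were 2.00 (95% exact Poisson interval 0.915 to 3.80), 1.08 (0.433 to 2.22) and 3.42 (0.0865 to 19.0), so the intervals of the 3 stretches overlap widely. All intervals given here cover counting error only, and regions are not replicates of a condition.

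As a whole the stretches held 1.51 combined regions per Mb (0.877 to 2.41), the windows 1.13 (0.454 to 2.33) and the other nuclear chromosomes 2.09 (1.79 to 2.43). The 17 members made up 8.63% of the combined list (95% exact binomial interval 5.11 to 13.5), below the 11.3% that length alone would give. This difference did not pass the two-sided exact binomial test (p = 0.309, adjusted p = 0.386 over the 5 tests made here). In lists built from 1 replicate alone, with the 197 strongest nuclear regions of each, the share was 6.09% (12 regions) in replicate 1 and 5.58% (11 regions) in replicate 2. By the same exact test the adjusted p was 0.0445 in replicate 1 and 0.0229 in replicate 2. Each p-value stood in for the main one among the 5 tests, with no correction for the number of alternatives tried. In replicate 1, however, 344 nuclear regions share the highest score, so the 197 taken from them depend on the order of region names. All 344 gave 28 members, or 8.14% (5.48 to 11.5), which did not pass the exact test (adjusted p = 0.182, a setting added once the values were known). In replicate 2 a single region had the score at that limit.

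The long replicate lists had a different profile along IV. In replicate 1 the member stretches held 244 regions per Mb (235 to 253), close to the 247 (243 to 250) of the other chromosomes and below the 302 (288 to 316) of the windows. In replicate 2 the member stretches held 284 per Mb (274 to 294), the other chromosomes 287 (283 to 290) and the windows 491 (474 to 509). More regions per Mb were thus listed in the windows in both replicates, while outside them the interval for IV overlapped that of the other chromosomes in each list. The left and middle stretches had 232 and 249 regions per Mb in replicate 1 and 283 and 281 in replicate 2. The short right end had 318 (256 to 389) and 355 (290 to 431), and its interval in replicate 1 lay above that of the other chromosomes.

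**Figure D1:**
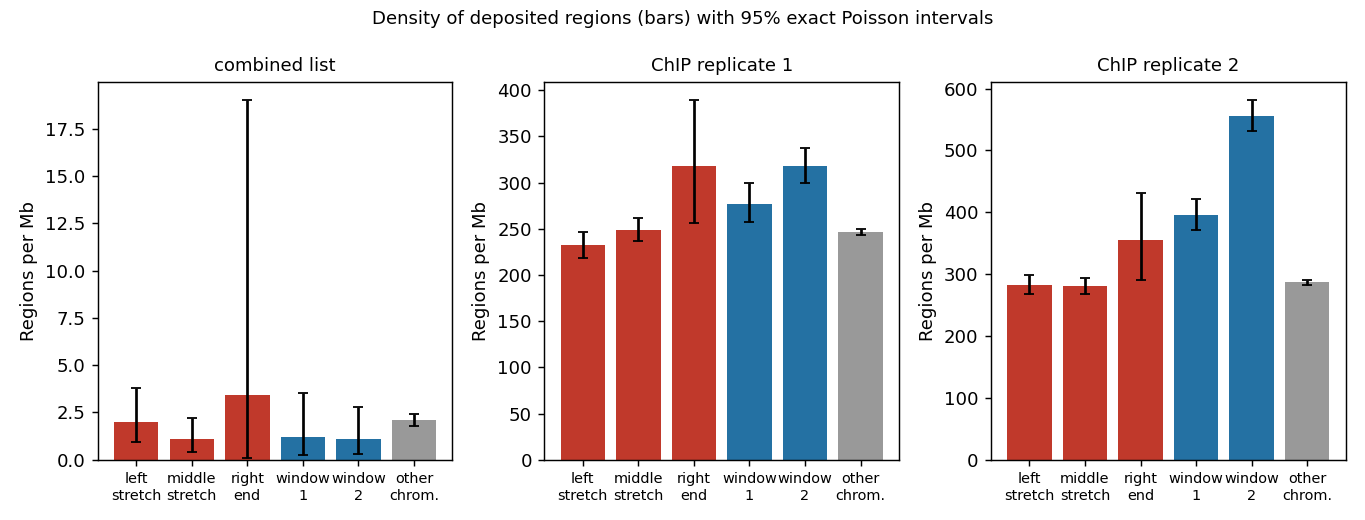
Regions per Mb (bars, from 0) with 95% exact Poisson intervals, in the 3 stretches of IV outside the windows (red), in each window (blue) and on the other nuclear chromosomes (grey), for the combined list and each ChIP replicate. In the replicate lists the left and middle stretches lie near the grey bar and the windows lie above it, up to 556 per Mb in replicate 2. The short right end also lies above it, with wide intervals. The combined list shows no such excess in the windows.

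The combined members of the left stretch are described first, each with the best-ranked overlapping region in either replicate list. Rank 1 is the strongest region of a list, the score is the authors' own and serves only to order regions within 1 list, and equal scores were ordered by each region's number in its name. In replicate 1 every rank up to that of the last region at the highest score, 2.86, is such an order among equal scores. The combined list ends at a score of 1.3 and its highest score, 2.37, was shared by 102 regions, among them 9 of the 17 members.

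The member from 654799 to 655066 had the highest score of each replicate list, 2.86 and 2.17, as did those at 13240370 and 17249549. By the order of names it ranked 14 in replicate 1 and 4 in replicate 2, and its width of 268 bp made it the only one of the 17 that departed from the standard 564 bp. The next, from 1094082 to 1094645, ranked 418 and 43. Both carried the highest combined score and stood at or near the top of both lists.

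Further along the left stretch lay 4 more single regions, all at the highest score of replicate 1 and at different ranks of replicate 2. The region from 2219327 to 2219890 ranked 34 in replicate 1 but only 13495 of 30000 in replicate 2, where its score was 0.0595 against a list maximum of 2.17. The region from 2388864 to 2389427 ranked 53 and 254, and that from 2601905 to 2602468 ranked 83 and 1062. The last of the stretch, from 4049458 to 4050021, ranked 129 and 555. In replicate 2 these positions were 0.847%, 3.54% and 1.85% of the way down the list for the other 3, in order of position 2388864, 2601905 and 4049458, and 45.0% for the region at 2219327, which was the only one of the 4 far from the top there.

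A locus of 3 overlapping combined regions spanned 3050199 to 3051188, or 990 bp. Their combined scores were 2.37, 2.37 and 1.60. In replicate 1 the best region over all 3 ranked 99 and a second ranked 125, both at that list's highest score of 2.86. Replicate 2 had no region there, and its nearest lay 7950 bp from the locus. The 3 entries therefore overlap listed regions of replicate 1 only, although both replicates went into the combined list. The reason is not given in the labels. With no read counts in the lists, the signal of replicate 2 at this locus is unknown.

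In the middle stretch 4 of the 7 regions lay outside the strongest 10% of replicate 1 or had no counterpart there. The region from 7048118 to 7048681 ranked 121 in replicate 2 and had no counterpart in replicate 1, whose nearest region was 711 bp away. It had the lowest combined score of the 17 members, 1.31, and lay 48.4 kb from the edge of the first window. The region from 12036960 to 12037523 ranked 188 in replicate 2, and the nearest region of replicate 1 was 651 bp away. That from 8794938 to 8795501 ranked 163 in replicate 2 and 5339 in replicate 1, and that from 11149468 to 11150031 ranked 339 and 4015. The latter pair stood 21.3% and 16.0% of the way down the list of replicate 1.

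The other 3 regions of the middle stretch were strong in both lists. The region from 13240370 to 13240933 ranked 134 in replicate 1 and 25 in replicate 2. The region from 9196667 to 9197230 ranked 85 and 230, and that from 10252255 to 10252818 ranked 389 and 83. The right end had a single combined region, from 17249549 to 17250112, which ranked 292 and 8. All 4 carried the highest combined score.

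In all, 15 of the 17 members (88.2%) overlapped a region of replicate 1 and 14 (82.4%) a region of replicate 2, where the shares over the whole combined list were 97.0% and 98.0%. Of the 17, 12 had a counterpart in both. In the windows all 7 combined regions had both, and on the other chromosomes 168 of 173 had both. The 3 entries of 1 locus make up all of the members without a counterpart in replicate 2. The median best rank of the members was 99 in replicate 1 and 176 in replicate 2, against 181 and 128 on the other chromosomes. Combined regions without a counterpart were left out of these medians. The members' value of 99 is the rank that the 3 entries of this locus share. Both medians for replicate 1 also fall among regions of equal score. The members at the highest score of replicate 1 that were also in the strongest 1% of replicate 2 were the 5 at 654799, 2388864, 9196667, 13240370 and 17249549. Since both replicates went into the combined list, these values describe it and test nothing.

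**Figure D2:**
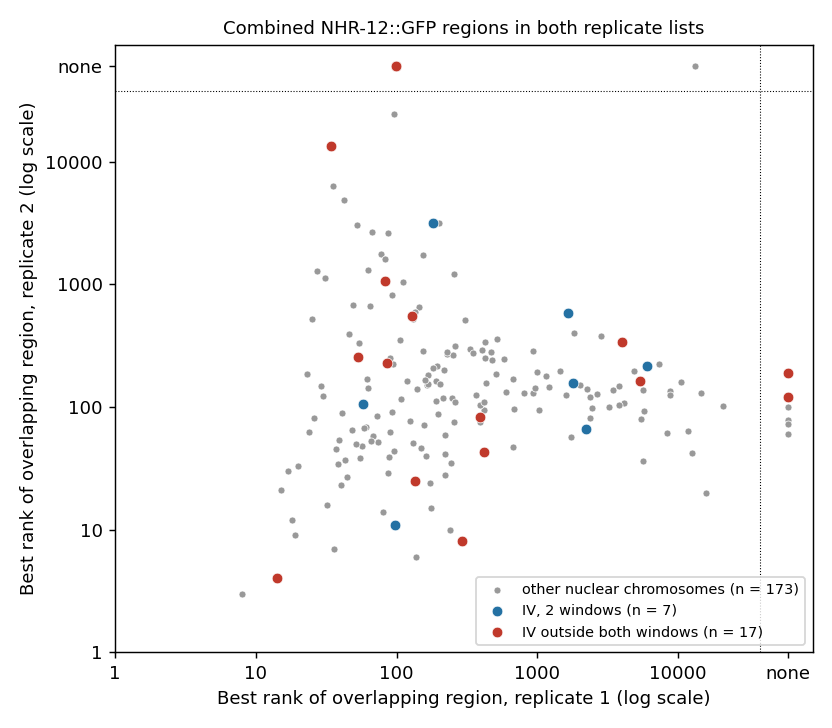
Best rank of the overlapping region in replicate 1 (horizontal, log scale) and replicate 2 (vertical, log scale) for every combined region, with "none" for no overlapping region. Red points are IV outside the windows (the 3 entries at 3050199 to 3051188 coincide at rank 99 and none), blue points the windows and grey points the other chromosomes; the red points spread from ranks 14 and 4 to regions present in 1 list only.

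With regions within 1 kb counted once, the members formed 15 loci. The widest gap between neighbouring loci inside a stretch was 1.75 Mb, from 7048681 to 8794938, and the narrowest was 0.169 Mb, from 2219890 to 2388864. For each edge of the windows, the closest combined regions outside were those at 4049458, 7048118, 13240370 and 17249549, with scores of 1.82, 1.31, 2.37 and 2.37. Their midpoints lay 450, 48.4, 259 and 49.8 kb from the edges. The closest inside started at 4749980, 6790327, 13720762 and 15755782, with scores of 2.37, 1.81, 1.60 and 1.34. These lay 250, 209, 221 and 1443.9 kb from the edges. No combined region lay closer to an edge than the 48.4 kb of the one at 7048118.

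The next question was how often regions of the 2 replicate lists overlapped outside the windows. Of the 2757 members of replicate 1, 1144 (41.5%, 95% exact binomial interval 39.6 to 43.4) overlapped a region of replicate 2 by 1 bp or more, where the whole nuclear list gave 44.1%. The share in all other nuclear regions was 44.4%, and the difference of 2.92 percentage points passed Fisher's exact test (two-sided, p = 0.00364, adjusted p = 0.0182). The rest includes the windows, whose share was 62.8% (60.6 to 65.0). Against the other chromosomes alone, at 42.7%, the difference did not pass the same exact test (adjusted p = 0.377). This last comparison was added once the values were known. Against the windows alone the adjusted p was 2e-45. The regions of replicate 2 covered 13.4% of the member stretches, 13.5% of the other chromosomes and 22.6% of the windows. The part of this coverage in the overlap shares was not tested. The share that randomly placed regions would give was not computed for either direction. It would exceed the covered share, since regions of 600 and 516 bp need to share only 1 bp.

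In the other direction, 1125 of the 3204 members of replicate 2 (35.1%, 33.5 to 36.8) overlapped replicate 1, where the whole nuclear list gave 36.2%. The difference from the 36.3% of the other nuclear regions did not pass Fisher's exact test (adjusted p = 0.321). The windows had 39.4% (37.7 to 41.2) and the other chromosomes 35.9% (35.3 to 36.5). Entries of 1 list can overlap each other, as 1203 members of replicate 1 and 1117 of replicate 2 did, so p-values that count them as independent are too small. Merging them left 2127 and 2621 loci. The shares were then 41.8% and 35.1%, and the call in replicate 1 against the whole rest was kept (exact test, adjusted p = 0.0341).

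Within the stretches the overlap share was 40.9% (37.9 to 44.0) on the left, 41.3% (38.9 to 43.7) in the middle and 51.6% (41.0 to 62.1) at the right end in replicate 1. In replicate 2 it was 33.3% (30.7 to 35.9), 36.2% (34.0 to 38.5) and 38.5% (29.1 to 48.5). The right end rests on 93 and 104 regions, and its intervals overlap those of both other stretches in each list.

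Stronger members were shared more often. In the strongest 10% of the nuclear list of replicate 1, 153 of 261 members (58.6%, 52.4 to 64.7) overlapped replicate 2, where all nuclear regions of that rank gave 59.2%. In replicate 2 it was 126 of 275 (45.8%, 39.8 to 51.9), where all regions of that rank gave 49.7%. Neither difference from the rest of the same ranks passed Fisher's exact test (adjusted p = 0.894 and 0.321). In the weakest 10% the members' shares were 36.4% (30.7 to 42.4) and 28.9% (23.8 to 34.3). The decline from the strongest to the weakest bin was thus larger than the counting intervals in both replicates.

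**Figure D3:**
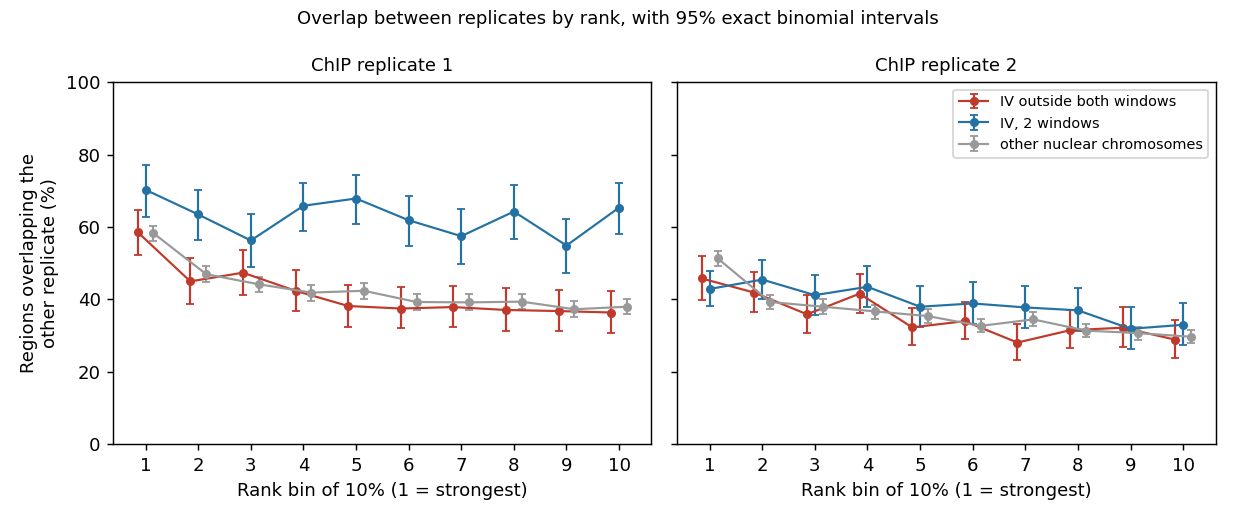
Share of regions that overlap the other replicate (percent, with 95% exact binomial intervals) in 10 bins of rank, where bin 1 is the strongest, for members (red), windows (blue) and other chromosomes (grey). The members fall from 58.6% to 36.4% in replicate 1 and from 45.8% to 28.9% in replicate 2 and stay near the grey line, while in replicate 1 the windows lie above both.

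The overlapping regions were also more closely aligned where they were strong. Paired by mutual largest overlap, the members gave 924 pairs with a median distance of 136 bp between midpoints (quartiles 58 and 296 bp), and 39.9% lay within 100 bp. On the other chromosomes 42.4% of 7073 pairs did. Among the 24 member pairs with both partners in the strongest 10% of their lists, 21 (87.5%) lay within 100 bp, with a median of 42 bp. Among the other 900 it was 38.7%, with a median of 140 bp. The difference was not tested. The 12 pairs in which both partners overlapped a combined region all lay within 100 bp. Both replicates went into the combined list, so this value tests nothing, and pairs overlapping that list were not set aside from the 24. No value for strong pairs on the other chromosomes is given here. Rank itself was weakly related between partners, with a Spearman rho of 0.0851 over the 924 pairs, a description across regions that include many overlaps of weak entries.

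**Figure D4:**
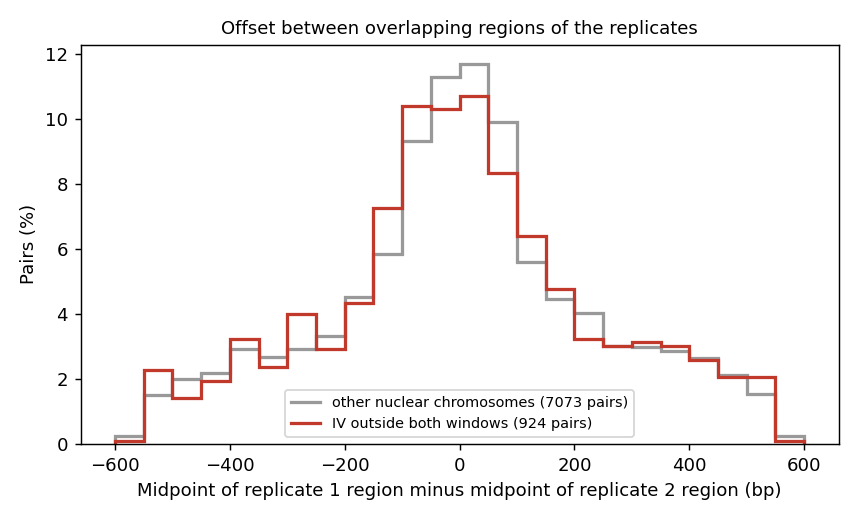
Distance from the midpoint of the replicate 2 region to that of the replicate 1 region (bp), in bins of 50 bp, as a percentage of all pairs matched by mutual largest overlap; 1 pair of the other chromosomes lies beyond the axis. Members (red, 924 pairs) and other chromosomes (grey, 7073 pairs) both peak near 0 and have long shoulders on both sides.

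Few listed members reached the combined list. Of the 2757 members of replicate 1, 20 (0.725%) overlapped a combined region, where the whole nuclear list gave 1.07%. Of the 3204 members of replicate 2, 21 (0.655%) did, where the nuclear list gave 0.891%. The combined list derives from the replicates, and nothing was tested with these counts.

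The top of each replicate list shows which strong regions were left out. The highest score of replicate 1 was shared by 28 members. Of these, 10 overlapped a combined region, another 14 overlapped replicate 2 but no combined region, and 4 overlapped neither. The partners of the 14 in replicate 2 had ranks from 622 to 19511 with a median of 4290.5, and 3 of the 14 had a partner in the strongest 10% of that list. In replicate 2 the highest score was shared by only 4 members, at 654838, 1094086, 13240398 and 17249573. All 4 overlapped both replicate 1 and the combined list. On the other chromosomes 52 of 55 such regions of replicate 2 overlapped the combined list, and 118 of 304 of replicate 1. Of those 304, another 122 overlapped replicate 2 but no combined region, and 64 overlapped neither. In the windows these 2 counts were 7 and 2 of 12. The differences between these places were not tested.

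The 5 shared pairs outside the combined list with the best ranks were chosen by the worse of their 2 ranks. The first lay from 7099718 to 7100317 in replicate 1 (rank 401) and from 7099388 to 7099903 in replicate 2 (rank 451), with midpoints 372 bp apart. The second lay from 7084644 to 7085243 (rank 478) and from 7084666 to 7085181 (rank 570), only 20 bp apart. These pairs were close neighbours near the start of the middle stretch, and neither had an entry in the combined list. The third, from 8252818 to 8253417, ranked 456 in replicate 1 and 590 in replicate 2. The fourth, from 11027474 to 11028073, ranked 115 and 622, and the fifth, from 4236241 to 4236840, ranked 397 and 663.

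Some strong members appeared in 1 replicate alone. In replicate 1, the first 3 by rank without any overlap in replicate 2 or the combined list, all at the highest score, lay from 10932977 to 10933576 (rank 268), from 4445615 to 4446214 (rank 270) and from 945683 to 946282 (rank 280). The nearest regions of replicate 2 were 26, 2608 and 238 bp away. In replicate 2 they lay from 7552949 to 7553464 (rank 165), from 8538031 to 8538546 (rank 233) and from 11693023 to 11693538 (rank 248), with replicate 1 at 1622, 420 and 527 bp. Strong entries of 1 list thus included one that lay 26 bp from a region of the other list and some with no neighbour within 1 kb.

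The share of strong regions was set beside that of the whole nuclear list, 9.93% in replicate 1 and 9.94% in replicate 2. In replicate 1, 7.48% of the members on the left and 10.4% in the middle were among the strongest 10% of the list, and in replicate 2 it was 6.83% and 9.80%. The intervals were 5.96 to 9.25 and 8.98 to 12 in replicate 1, and 5.51 to 8.36 and 8.48 to 11.3 in replicate 2, so those of the left and middle overlap in replicate 1 and do not in replicate 2. The right end had 14.0% (7.66 to 22.7) and 6.73% (2.75 to 13.4). On the left there were 9 combined regions (7 loci) in 4.5 Mb, and in the middle there were 7 in 6.5 Mb. The difference between the stretches was not tested.

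Region numbers were also counted in bins of 500 kb. Over the 22 full bins of the member stretches, replicate 1 held 103 to 146 regions per bin with a median of 119, and replicate 2 held 101 to 180 with a median of 141. The bin with most regions in replicate 1 ran from 10000001 to 10500000, and that of replicate 2 from 8500001 to 9000000. Across these 22 bins the numbers in the 2 lists had a Pearson r of -0.02 and a Spearman rho of 0.04. In the 12 bins of the windows r was 0.743, and on the other chromosomes it ran from 0.0623 on III to 0.776 on V. These values are descriptions, since both lists share the sequence of each bin and its mappability. Among the 22 bins, 9 held no combined region, and the highest number, 3, lay in the bin from 3000001 to 3500000, all from the single locus there.

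**Figure D5:**
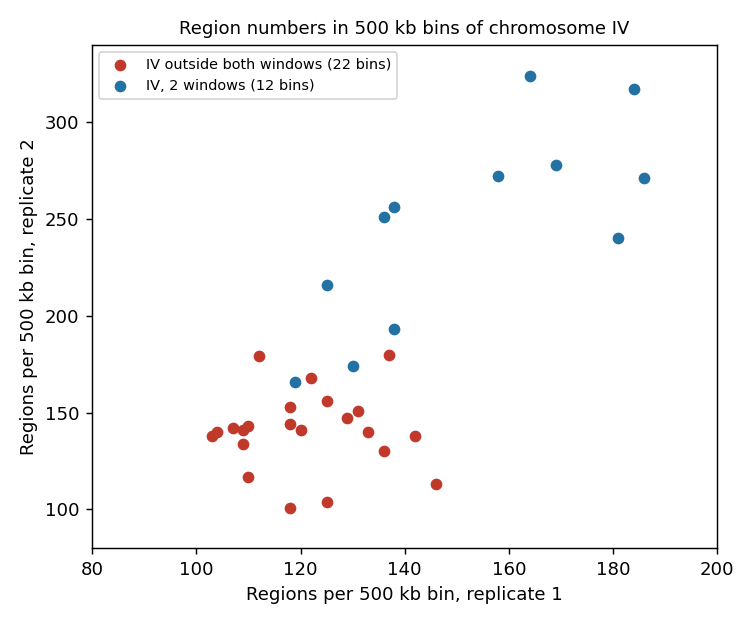
Number of listed regions in each 500 kb bin of IV, replicate 1 (horizontal) against replicate 2 (vertical); axes do not start at 0. The 22 bins outside the windows (red) form a round cloud between 103 and 146 in replicate 1 and 101 and 180 in replicate 2, and the 12 window bins (blue) rise together in both lists.

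Genes at the members were not assigned. The gene table used here is of assembly WBcel235 and the regions are on WS220, so regions are named by position, and no sequence of a region is shown.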

How the data were processed

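Each deposited list gives regions with a start, an end and a score. Per the file headers, positions are on WormBase WS220, and the source column of the deposited files names SPP via IDR (a peak caller, and the irreproducible discovery rate, which scores how well replicates agree). No aligner, version or threshold, and no use of the inputs, is given in the sources. The scale of the deposited score is not stated, and it served only for ranking and filtering within 1 list. Nearly all widths are fixed, and read depth is unknown.

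Members were chosen by midpoint, and regions overlapped if they shared 1 bp or more. The share of combined members was compared with length by an exact binomial test, and overlap shares with the rest of the same nuclear list by Fisher's exact test, all two-sided, with Benjamini-Hochberg adjustment over 5 tests and a threshold of 0.05. Intervals are 95% (Clopper-Pearson, or exact Poisson for densities). Mitochondrial regions entered no test. The rule for naming took every combined member, the 5 best shared pairs outside the combined list and the 3 strongest single regions per replicate. The members, tests and lists were chosen with earlier results of these data known. Tests were run in scipy 1.17.1 under Python 3.11.15, tables handled with pandas 2.3.3 and numpy 2.4.6, and plots drawn with matplotlib 3.10.9. Overlap and merging were checked against bedtools 2.31.1, with 15 of 15 counts identical. Fisher's exact test of shares was checked on simulated lists whose regions did not overlap each other, unlike many entries here. The binomial test was not simulated.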

Additional observations from a re-analysis of the deposited data

How the results depend on the processing

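The lower overlap share of replicate 1 members (41.5%) kept its direction under all 7 alternatives but passed in only 2 of them, with entries merged and against the windows alone. It lost its call with midpoints within 100 bp (13.4%), with at least 50% of both regions shared (26.4%), against the autosomes without X (41.5% against 43.7%, adjusted p = 0.149 by Fisher's exact test), against the other chromosomes alone and in the stronger 50% of both lists (30.5%). Calls appeared for replicate 2 against the windows alone (35.1%, adjusted p = 0.00226 by Fisher's exact test) and for the strongest 10% of replicate 1 against the windows alone (58.6% against 70.3%, adjusted p = 0.0364). The share of combined members (8.63%) did not pass. With the 197 strongest nuclear regions of 1 replicate in place of the combined list, the members' share passed as low (5.58% to 6.09%). It did not pass with all tied top regions of replicate 1 (8.14%, adjusted p = 0.182 by the exact binomial test). In 27 of the 36 alternatives no call changed. The p-value of each alternative was adjusted together with the other main tests only, and the number of alternatives was not corrected for. The cause was not tested. No paired analysis was possible because regions of the inputs were not analysed. Without read depth, no value could be weighted by it.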

Other observations

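The densest span of 1 Mb among the highest-scoring members of replicate 1 lay in the middle stretch. It was picked as the densest after the data were seen, so some crowding in it was bound to appear, and none was tested. Of the 28 members at the highest score of replicate 1, 9 lay within 703 kb, from 10932977 to 11636436. They formed 8 loci once overlapping entries were merged. Loci within 1 kb of each other were not merged here, unlike in the count of combined loci. Of the 9 members, 8 overlapped a region of replicate 2 and none overlapped a combined region. Among all 28, 22 overlapped replicate 2 and 10 a combined region. On the other chromosomes 240 and 118 of 304 did. The fourth of the highest-scoring members that met neither other list, besides the 3 named above, lay from 10380430 to 10381029 and ranked 300. The widest merged locus of replicate 1 outside the windows spanned 2005 bp, from 10564501 to 10566505, and that of replicate 2 spanned 1998 bp, from 9082297 to 9084294.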
